A study of Saccharomyces cerevisiae with 9 samples.

Results

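Yeast strains deleted for 10 genes of phosphate sensing and phosphate uptake were followed through every pool and arsenite dose of a tag-array study. They are the cyclin PHO80, the kinase PHO85, the inhibitor PHO81, the transcription factors PHO4 and PHO2, and the uptake genes PHO84, PHO86, PHO87, PHO89 and PHO90. The members were picked by name, with their values on these arrays already known, so their values are given here as a description, and nothing is read from where they fell in the fits across all strains. All 10 had a value on at least 1 array, out of 5101 strains with a value in the series, and 6 of them had a value on all 9 arrays. The tag sequences are not shown here.

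Budding yeast senses phosphate through the PHO pathway. When phosphate is plentiful, the cyclin Pho80 and the kinase Pho85 phosphorylate the transcription factor Pho4 and keep it out of the nucleus. When phosphate is short, the inhibitor Pho81 holds the kinase inactive, and Pho4 with its partner Pho2 turns on the genes of high-affinity uptake and of phosphate scavenging. Arsenate is a chemical mimic of phosphate and enters yeast through the phosphate transporters, whereas arsenite, the trivalent form used in this study, enters mainly through the aquaglyceroporin Fps1.

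Each array compared genomic DNA tags of an arsenite culture with those of a control culture from the same pool. The parent of every pool was BY4743, derived from S288C, a MATa/alpha diploid carrying ura3delta0, leu2delta, his3delta1, lys2delta0/LYS2, met15delta0/MET15 and can1delta::LEU2-MFA1pr-HIS3/CAN1, and each strain had 1 gene replaced by kanMX. Haploid MATa spores of the pool were grown to confluence at 30 °C on selection plates with 0, 100, 200, 400, 800 or 1600 µM sodium arsenite (6 arrays). The heterozygous diploids, which keep 1 intact copy of the deleted gene, grew for 10 generations in YPD liquid at 30 °C with 0 or 450 µM (2 arrays). In the last pool, whose haploids also carry a pfd1 disruption by TEF1pr-URA3 and so lack a prefoldin subunit, the arsenite plates held 5 µM and no uracil, while the control plates held uracil (1 array). Each pool and dose has 1 array, so nothing here has a replicate.

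A value is the log2 ratio of arsenite over control, averaged over the tags of a strain, relative to the median strain of its array; a negative value is a relative loss in arsenite. The tag error printed with a value is the standard deviation of a single tag, taken over strains with 2 tags on that array, divided by the square root of the number of tags behind the value. It was between 0.36 and 0.39 for 1 tag on the 4 haploid arrays below 800 µM and the 2 heterozygous arrays, 0.40 at 800 µM, 0.52 at 1600 µM and 0.48 in the pool lacking PFD1. It covers disagreement of tags on one array and leaves out the spread between cultures. Values were also set against the range of strains in the absence of arsenite, which leaves out the outer 0.5% on each side of the 0 µM array of the same pool. That range ran from -1.39 to 1.37 in haploids and from -0.87 to 1.13 in heterozygotes. For scale, the strain lacking the arsenite exporter ARR3 read -6.52 at 800 µM and the strain lacking FPS1 read 4.18.

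The direction of the ratio is likely, not settled, since the file does not state it. On the array of the pool lacking PFD1, strains of the uracil synthesis genes URA1, URA2 and URA4 read -5.23, -4.88 and -3.98 with the sign used here; they cannot grow on plates without uracil, which on that array were the arsenite plates. All pairs of arrays correlated positively over probes (r from 0.05 to 0.80), so no array ran against the others. With the sign turned, every loss would read as a gain. The 1600 µM array stood apart: its median strain lay at -2.99 before centring, 2508 strains had a value on it, and a value there is relative to that median.

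In haploids 2 sensing strains, each measured by 1 tag, lay at the opposite ends of the members at 800 µM. The strain without the cyclin PHO80 had its highest values at the highest doses, and the strain without PHO81, the inhibitor of the same kinase, had its lowest values there. The strains without PHO4 and PHO2, the activators downstream, lay below the median at 800 and 1600 µM. At 800 µM PHO80 stood at 1.42 and PHO81 at -1.45, both just outside the range without arsenite, and no other member was outside it. Both passed its limits by much less than their tag error of 0.40, so whether they lie outside it is not settled.

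PHO80 is the cyclin that directs Pho85 to Pho4. Its haploid values were 0.09, 0.03, 0.53, 0.66, 1.42 and 1.88 at 0, 100, 200, 400, 800 and 1600 µM, all from 1 tag. The strain was at the median at the lowest doses and above it from 200 µM on, and at 1600 µM it was also above the range. The value at 800 µM stood 1.33 above that at 0 µM in log2, a 2.51-fold difference in relative abundance, with a slope of 0.33 ± 0.07 (SE) per dose step over these 5 arrays. The slope was positive in each alternative run, between 0.20 after quantile normalization and 0.43 without the 0 µM array. These runs reuse the same tag and arrays, and several of them could not move the slope, so nothing is read from their agreement. Among all strains measured at 800 µM PHO80 lay at percentile 93.2.

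PHO85, the catalytic kinase subunit, had 1 haploid value. It read -0.53 ± 0.38 (tag error, 1 tag) at 100 µM, percentile 6.81 of that array, inside the range. No haploid value at 0 µM or at the higher doses was given for it, so the cyclin and its kinase can be set side by side at 100 µM alone, where PHO80 read 0.03. The gap between them was about as large as its tag error.

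PHO81, the inhibitor, read -0.57, -0.33, -0.29, -0.79, -1.45 and -1.62 from 0 to 1600 µM, again from 1 tag. It was the lowest member at 0 µM too, so it was already below the median without arsenite. At 800 µM minus 0 µM the strain stood at -0.88 in log2, a ratio of 0.54. The slope was -0.22 ± 0.10 (SE), but 0.10 after quantile normalization, and -0.06 without the 800 µM array. At 1600 µM PHO81 lay at percentile 2.07.

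The transcription factor strains stayed near the median up to 400 µM. PHO4, a helix-loop-helix factor, read -0.14, -0.18, -0.09, -0.22, -0.40 and -1.08 from 0 to 1600 µM, with its 2 tags at -1.24 and -0.92 at the top dose. PHO2, a homeodomain factor that binds with Pho4, read 0.19, -0.28, 0.13, -0.14, -0.62 and -1.38, with tags at -1.64 and -1.13 at 1600 µM. Both stayed inside the range at every dose, and both were lowest on the last 2 arrays. At 1600 µM both lay within their tag error of 0.37 from its lower limit of -1.39, and PHO2 lay almost on it. Pho2 also acts with the factor Bas1 on genes of adenine and histidine synthesis. The slopes were -0.06 ± 0.05 for PHO4 and -0.15 ± 0.08 for PHO2 (SE).

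**Figure D1:**
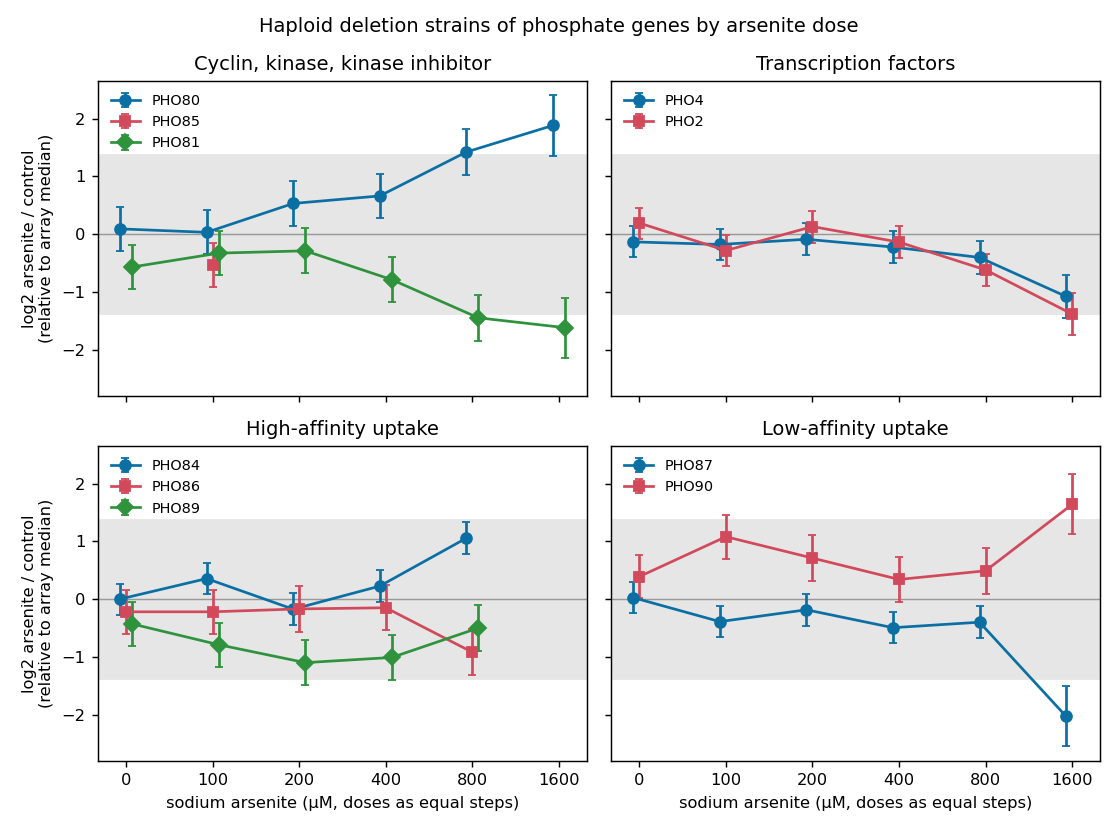
Haploid values of the 10 phosphate strains (y axis, log2 arsenite over control relative to the array median) against arsenite dose in µM, in 4 panels by role; points are 1 array each, error bars are the tag error and the grey band is the range without arsenite (-1.39 to 1.37). At 1600 µM PHO80 is at 1.88 and PHO81 at -1.62, and PHO85 has a single point at 100 µM.

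Of the high-affinity uptake genes, PHO84 was the one above the median at 800 µM. PHO84 encodes the proton-coupled high-affinity phosphate transporter, a main route of arsenate entry. Its strain read 0.00, 0.36, -0.18, 0.23 and 1.06 from 0 to 800 µM, with both tags high at 800 µM (1.19 and 0.92). The 800 µM value stood 1.06 above the 0 µM value, a 2.08-fold difference, and inside the range; the slope was 0.20 ± 0.10 (SE), or 0.01 without the 800 µM array. It had no value at 1600 µM.

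PHO84 lies next to TUB3, the minor alpha-tubulin gene, whose strain read -5.68 at 800 µM. The 2 neighbouring deletions were therefore on opposite sides of the median.

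PHO86 encodes a protein of the endoplasmic reticulum that Pho84 needs to leave it. Its strain did not follow PHO84: it read -0.22, -0.22, -0.17, -0.15 and -0.92 from 0 to 800 µM on 1 tag. The low value was that of the last array, and without it the slope of -0.13 ± 0.08 (SE) became 0.03. At 800 µM PHO84 stood above PHO86 by more than either tag error.

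PHO89, the sodium-coupled phosphate transporter that works at alkaline pH, had its lowest values in the middle of the series. It read -0.43, -0.79, -1.10, -1.01 and -0.50 from 0 to 800 µM on 1 tag, lowest of the members from 100 to 400 µM. At 100 and 200 µM it lay at percentiles 2.82 and 2.58 of all strains, although inside the range. Its slope of -0.04 ± 0.09 (SE) was near 0, but 0.19 after quantile normalization and -0.20 without the 800 µM array.

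The low-affinity carriers PHO87 and PHO90, related proteins that take up phosphate when it is plentiful, lay apart. The PHO87 strain read 0.02, -0.39, -0.18, -0.50 and -0.40 from 0 to 800 µM on 2 tags, then -2.03 at 1600 µM on 1 tag. The PHO90 strain read 0.39, 1.08, 0.71, 0.34, 0.49 and 1.64 on 1 tag. PHO90 was above PHO87 on each of the 6 arrays, including the one without arsenite. At 100 µM PHO90 was at percentile 99.1, and at 1600 µM PHO87 was at percentile 0.598.

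At 0, 100, 200 and 400 µM 0 members were below the range, against 0.512%, 0.831%, 1.53% and 5.75% of all strains, and 0 were above it, against 0.512%, 0.367%, 0.839% and 0.825%. In the order of the 9 members measured at 800 µM, which ran PHO80, PHO84, PHO90, PHO87, PHO4, PHO89, PHO2, PHO86 and PHO81, no gap between neighbours exceeded 2 tag errors of that gap. Small gaps are likely when 9 values are put in order, so they do not show that the members were alike. The ends lay far apart, PHO80 at 1.42 and PHO81 at -1.45, each with a tag error of 0.40. Outside the range at 800 µM were 1 of 9 members below, against 11.8% of all strains, and 1 of 9 above, against 7.36%. These shares are close to those of all strains. The members' median at 800 µM was -0.40 against 0.00 for all strains.

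The slope over 0 to 800 µM, fitted with limma across 3731 strains, called 2.89% of strains lower and 0.214% higher at an adjusted p under 0.05. It called 0 of the 9 fitted members in either direction, and 1 had an unadjusted p under 0.05, against 1042 of the 3731 strains; nothing is read from this count, since the same arrays were known when the members were picked. With dose in µM in place of equal steps limma called 14.8% of all strains lower and 12.7% higher. Of the 9 fitted members it called 1 lower (PHO81) and 1 higher (PHO80), near those shares. For the same reason nothing is read from these calls. The members' median slope was -0.06 against 0.01 over all strains. At 1600 µM, 2 of 6 members were below the range (PHO87 and PHO81) against 3.99% of strains, and 2 of 6 were above it (PHO80 and PHO90) against 14.5%. Each of these values rests on 1 tag with a tag error of 0.52, and all but that of PHO87 passed the limit by less than this. Nothing is read from these counts.

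The haploid strains whose values were nearest to those of PHO80 over the 5 arrays to 800 µM, by root mean square difference among 3722 other strains, were GAL83 (0.09), SIP4 (0.12), YOX1 (0.13), APL3 (0.14) and HOB2 (0.15). GAL83 encodes a beta subunit of the Snf1 kinase, SIP4 a transcription factor of gluconeogenesis, YOX1 a repressor of cell cycle genes, and APL3 a subunit of the AP-2 adaptor complex. The nearest of the 8 other fitted members was PHO84, at 0.43. The smallest difference among 3722 strains is nearly bound to lie below that among 8, so nothing is read from this contrast. The differences of the named strains were below the tag error of 1 tag, so their order is not read either. For PHO81 the nearest were CIS3, a cell wall protein (0.11), YPL247C (0.13), CEM1, of mitochondrial fatty acid synthesis (0.14), PRP40, a splicing factor (0.15), and HYR1, a peroxide-reducing enzyme (0.15). PRP40 is essential, so what its haploid tags measured is uncertain. Of the 8 other fitted members PHO86 was nearest to PHO81, at 0.41, and the same limit holds.

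In heterozygotes, with 1 copy lost, the order of the strains was another. The PHO87 strain was the lowest member at 450 µM, PHO2 and PHO81 were lower than at 0 µM, and PHO80 was near its 0 µM value. The difference of 450 minus 0 µM removes the leaning of a tag toward one dye; its tag error was 0.30 for 1 tag and 0.21 for 2 tags.

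PHO87 read 0.17 at 0 µM and -1.46 at 450 µM, a difference of -1.62 ± 0.21 with both tags low at 450 µM (-1.42 and -1.49). This was percentile 0.726 of 4681 strains. It was the 1 member of 10 below -1, against 1.99% of strains; above 1 there were 0 of 10, against 0.833%. Strains of many genes on its chromosome arm, the right arm of III, were low in the same comparison. Of the other 76 measured strains of the arm 23 were below -1 (30.3%), against 1.5% of strains elsewhere, and 8 were lower than PHO87. RBK1, the ribokinase gene beside PHO87, read -1.06, and among the 10 measured strains nearest to it, 4 were below -1. With the arm's median of -0.27 taken away PHO87 stood at -1.36. The median of the 10 measured strains nearest to PHO87 was lower than that of the arm, at -0.83, so -1.36 does not take away the level of its close surroundings. The part of the arm in the low reading was not tested.

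The other strains of the arm had medians of 0.01 and -0.19 in heterozygotes at 0 and 450 µM and -0.14 in haploids at 800 µM. In haploids at 800 µM PHO87 read -0.40 and RBK1 -0.66.

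**Figure D2:**
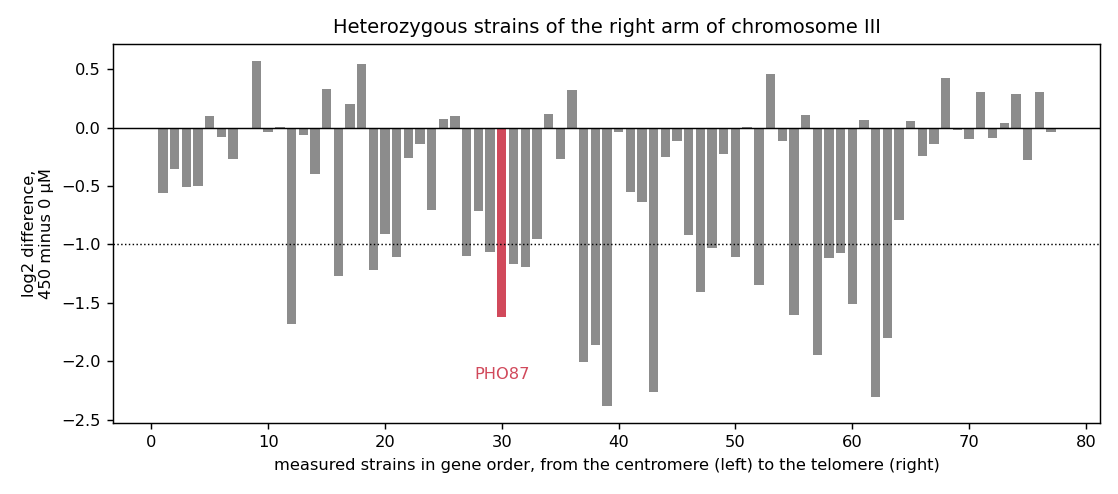
Heterozygous difference in log2, 450 minus 0 µM (y axis), for PHO87 and the 76 other measured strains of its chromosome arm, the right arm of III, in gene order (x axis, rank and not distance); the dotted line marks -1 and the red bar is PHO87. PHO87 at -1.62 stands among other bars below -1 on both of its sides.

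PHO81 and PHO2 were the next lowest heterozygotes. PHO81 went from -0.01 to -0.81, a difference of -0.80 ± 0.30 on 1 tag (percentile 3.28). PHO2 went from 0.11 to -0.66, a difference of -0.78 ± 0.21 on 2 tags that were both low (percentile 3.59). Both exceeded 2 tag errors and neither passed -1. PHO81 stands on the right arm of chromosome VII, where the other 218 strains had a median of -0.10, and its neighbours NAS6 and YHB1 read -0.48 and -0.59. PHO2 stands on the left arm of chromosome IV, with a median of 0.00 over 183 other strains, and its neighbours MSS2 and NSE4 read -0.12 and -0.71.

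The cyclin strain PHO80 differed by -0.08 ± 0.21 (percentile 43.7) and the kinase strain PHO85 by -0.36 ± 0.21 (percentile 17.9), each on 2 tags. PHO4 differed by -0.30 ± 0.21 (percentile 21.5). None of these 3 exceeded 2 tag errors. In haploids PHO80 read 0.66 at 400 µM, the nearest dose; whether the pools differ was not tested.

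Of the remaining carriers, PHO89 differed by -0.52 ± 0.30, from -0.59 to -1.11, and at 450 µM it was, with PHO87, 1 of 2 of the 10 members below the range, against 2.41% of strains. None was above it at 450 µM (0.918% of strains), and at 0 µM 0 of 10 were outside on either side, against 0.511% of strains below and 0.511% above. PHO90 differed by -0.41 ± 0.30 and PHO84 by -0.12 ± 0.21. The tags of PHO84 disagreed, at -0.54 and 0.30. PHO86 was the 1 member with a positive difference, 0.67 ± 0.30, which rested on a low 0 µM value of -0.70 and a 450 µM value of -0.03. In order from PHO86 down to PHO87, the gaps from PHO86 to PHO80 and from PHO81 to PHO87 exceeded 2 tag errors and no gap between them did. Small gaps between neighbours in that order do not show that strains farther apart in it were alike. In all 9 of 10 differences were negative, and of these only those of PHO87, PHO81 and PHO2 exceeded 2 tag errors. The median of the 10 was -0.38 against -0.02 over all strains. The share of all strains with a negative difference is not given here, so nothing is read from the count.

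In haploids lacking PFD1 no member left the range of the haploid 0 µM array, against 4.47% of strains below and 5.64% above. The lowest were 3 of the 5 sensing strains, PHO80 at -0.85 ± 0.34, PHO81 at -0.80 ± 0.48 and PHO2 at -0.69 ± 0.34. PHO87 read -0.64 ± 0.34, PHO85 -0.59 ± 0.34 and PHO4 -0.13 ± 0.34. PHO84 read 0.35 ± 0.34, PHO86 0.34 ± 0.48, PHO90 0.10 ± 0.48 and PHO89 0.02 ± 0.48, all within 2 tag errors of the median. Here the tags of PHO85 (-0.06 and -1.12) and of PHO80 (-1.22 and -0.49) lay apart. PHO80 was low on this array and high in haploids with PFD1 at 800 µM, but the doses and the media differ, and the effects of arsenite and of missing uracil cannot be told apart.

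**Figure D3:**
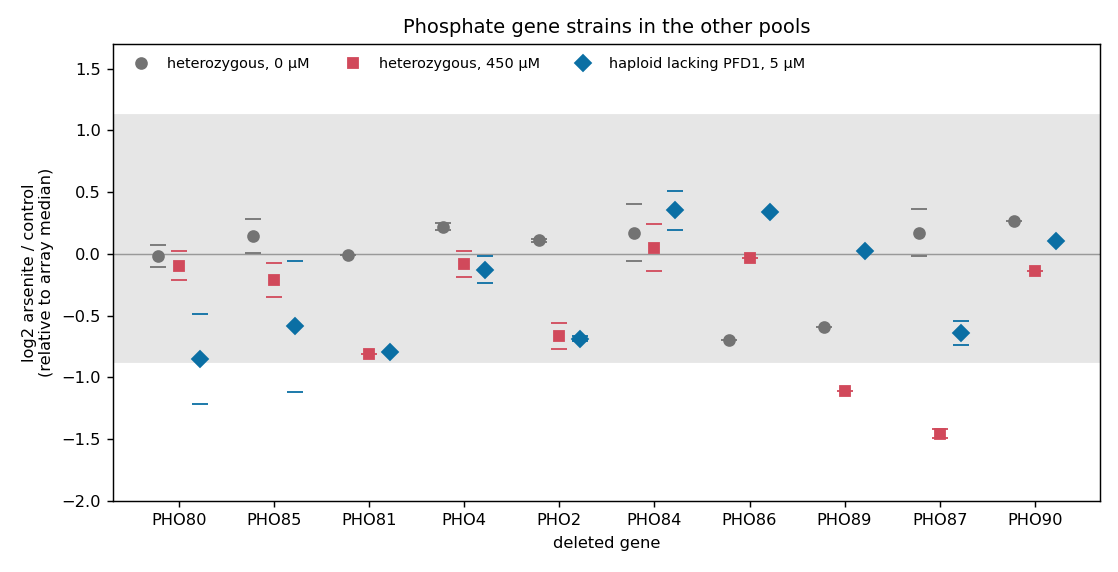
Values of the 10 strains (x axis) in heterozygotes at 0 µM (grey circles) and 450 µM (red squares) and in haploids lacking PFD1 at 5 µM (blue diamonds), in log2 arsenite over control relative to the array median; dashes are single tags and the grey band is the heterozygous range without arsenite (-0.87 to 1.13). PHO87 and PHO89 lie below the band at 450 µM, at -1.46 and -1.11.

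Around the core pathway, 51 further genes of phosphate handling were listed, of which 43 had a value on some array and 33 could be fitted over 0 to 800 µM. limma called 0 of the 33 in either direction at equal dose steps, and 12 had an unadjusted p under 0.05, against 1042 of all 3731 strains. With dose in µM it called 6 lower and 5 higher, near the shares of all strains given above. At 800 µM 4 of 37 were below the range and 3 of 37 above, again close to the shares of all strains. Their median at 800 µM was 0.01, and their median slope was 0.01, as over all strains.

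At 800 µM, 3 of the 5 measured strains of inositol pyrophosphate genes lay outside the range, 2 above (7.36% of all strains) and 1 below (11.8%). Inositol pyrophosphates are signalling molecules that bind SPX domains such as that of Pho81. VIP1, a kinase that makes them, read 0.22, -0.06, 0.20, 0.82 and 3.52 from 0 to 800 µM, with both tags high at 800 µM (3.66 and 3.39). KCS1, the other such kinase, read -0.43, 0.59 and 2.29 at 100, 200 and 800 µM on 1 tag, with no value at 0 or 400 µM. SIW14, a phosphatase that breaks them down, went the other way and read -0.14, -0.19, -0.56, -1.52, -3.20 and -1.65 from 0 to 1600 µM on 1 tag.

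The 2 kinase strains were thus above the range at 800 µM and the phosphatase strain below it. At equal dose steps the limma slopes missed the threshold, with 0.75 ± 0.24 for VIP1 (adjusted p = 0.119) and -0.74 ± 0.14 for SIW14 (adjusted p = 0.0591). With dose in µM limma called VIP1 higher (adjusted p = 0.00434) and SIW14 lower (adjusted p = 0.00054). SIW14 was also called lower after quantile normalization (adjusted p = 0.0328) and without the 0 µM array (adjusted p = 0.0491). DDP1, another phosphatase of these molecules, read 0.29 at 800 µM, and ARG82, an inositol phosphate kinase upstream, 0.63; both were inside the range. In heterozygotes the differences were 0.38 for VIP1, -0.29 for KCS1 and 0.27 for SIW14.

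Several polyphosphate strains lay above the median without leaving the range. VTC1, VTC3 and VTC5, of the vacuolar polyphosphate polymerase complex, read 1.27, 0.83 and 1.04 at 800 µM, each on 1 tag. VTC2 read 0.14 there and the polyphosphatases PPN1 and PPN2 0.18 and -0.13. At 1600 µM VTC1 and VTC3 read 0.35 and 0.16, and VTC5 had no value. The list's median was 0.50 over 6 strains. None of its 5 fitted strains passed limma at equal steps (adjusted p = 0.0702 for VTC1, 0.0865 for VTC3 and 0.0978 for VTC5), and these 3 passed with dose in µM.

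Among the other cyclins of Pho85, PCL9 stood above the range at 800 µM with 1.43 on 1 tag, and it already read 0.86 at 0 µM. PCL1 and PCL8 read -1.13 and -0.80, and PCL6 and PCL7 0.36 and 0.28. limma called none of the 6 fitted cyclins at equal steps, and PCL2 lower with dose in µM (adjusted p = 0.0422). Of the proteins known as Pho85 substrates, 2 of 5 were below the range at 800 µM, against 11.8% of all strains: RIM15, a kinase of quiescence entry, at -1.82, and SIC1, an inhibitor of the cell cycle kinase, at -1.46. The 2 sets of RIM15 tags disagreed at 400 µM (0.43 against -1.30 and -1.28), and the value at 800 µM came from one set alone. CLN3, a cyclin of the start of the cell cycle, read -0.98 at 800 µM, and GSY2, glycogen synthase, and CRZ1, a factor of the calcium response, 0.06 and 0.01.

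PHO23, a subunit of the Rpd3 histone deacetylase complex, read 0.14, 0.10, -0.34, -0.51, -2.49 and -0.92 from 0 to 1600 µM. Both tags were low at 800 µM (-2.46 and -2.53), and in heterozygotes it differed by -1.23. Its limma slope of -0.59 ± 0.15 had an adjusted p = 0.0869 at equal steps and 0.0024 with dose in µM. At 800 µM the 8 measured phosphatase and scavenging genes of the PHO regulon lay inside the range, from -1.06 for GDE1 to 1.10 for PHM8, with the acid phosphatase PHO5 at 0.22 and the vacuolar phosphatase PHO8 at 0.14. PHM8 read 3.61 at 1600 µM, above the range. limma called 0 of the 8 at equal steps, and with dose in µM it called GDE1 lower (adjusted p = 0.0206) and PHM8 higher (adjusted p = 0.0149). The other phosphate carriers lay at 800 µM between -0.32 for SYG1 and 0.02 for the mitochondrial carrier MIR1, with the vacuolar exporter PHO91 at -0.12.

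**Figure D4:**
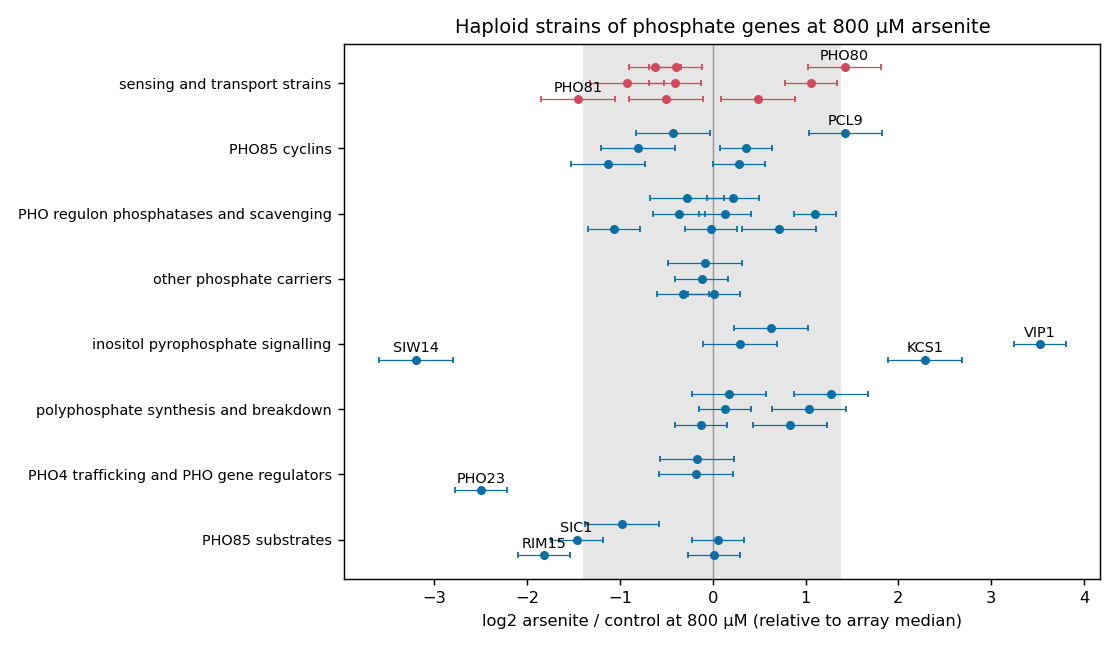
Haploid values at 800 µM arsenite (x axis, log2 over control relative to the array median) of the sensing and transport strains (red) and of the 7 lists of further phosphate genes (blue, rows); points are strains, bars the tag error, the grey band the range without arsenite, and names mark strains outside it. VIP1 at 3.52, SIW14 at -3.20, PHO23 at -2.49 and KCS1 at 2.29 lie farthest from the median.

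Deletions beside the members gave no common pattern at 800 µM. Of neighbours measured there, those outside the range were TUB3 beside PHO84, PCA1, a cadmium exporter, beside PHO89 at -2.12, and RRP6, of the nuclear exosome, beside PHO80 at 1.81. RRP6 shared the sign of PHO80 at 800 µM, but it read -0.31 and -0.34 at 200 and 400 µM, where PHO80 was at 0.53 and 0.66. IZH2, on the other side of PHO80, read -1.62 and -1.69 at 200 and 400 µM and had no value at 0 or 800 µM. PCA1 read -0.94 and -1.21 at 100 and 200 µM, beside PHO89 at -0.79 and -1.10.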

How the data were processed

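The deposited values are log2 ratios of the 2 channels of each array, per tag probe; the base is taken from their size, and the natural log cannot be told apart. Per the labels' protocols the control was labelled Cy5 and the arsenite culture Cy3 on all 9 arrays, with no dye swap; no source used here gives the scanner, the normalization or the filters. The sign was turned to arsenite over control, named probes (8765 of 9727 with a value; 962 have no gene in the platform annotation) were averaged per strain, and each array was centred on its median strain. Between 2508 and 4904 strains had a value per array, and the number of arrays limits precision. Counted over all arrays, 1 tag was measured for 4 of the members and 2 tags for 6. Of these 6, PHO80 and PHO85 had only 1 tag with a value on the haploid arrays.

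Slopes over the haploid arrays from 0 to 800 µM (equal dose steps) were fitted with limma 3.58.1 in R 4.3.3 over strains measured on all 5 arrays (two-sided test; p-values adjusted over all strains by Benjamini-Hochberg, threshold 0.05), after a run on simulated data. P-values rest on the scatter around a straight line. The members, the lists and the choice to leave out the 1600 µM array were made with earlier results of these data known. Named beside the members were listed genes outside the range at 800 µM or called, the 5 strains nearest to the highest and the lowest member, and neighbours outside the range; examples inside the range were chosen after their values were seen. Neighbours are protein-coding genes next to each other in the RefSeq table of assembly R64, to which 5097 of 5101 strains matched. The tag sets 1 and 2 were told apart by probe number, since the files do not say which tag is upstream.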

Additional observations from a re-analysis of the deposited data

How the results depend on the processing

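limma's counts over all strains (108 lower and 8 higher) depended on the setting. They were 73 and 52 after quantile normalization, 145 and 49 after dividing each array by its median absolute deviation, 554 and 474 with dose in µM, and 66 and 3 with tag set 2 alone. Without the 100, 200, 400 or 800 µM array they were 7 and 0, 55 and 1, 14 and 1, and 31 and 1. With the 1600 µM array added, and with a trended and robust prior, limma called 0 in either direction, with 674 and 1118 strains at an unadjusted p under 0.05. Of the further phosphate genes, with 0 called by limma and 12 at an unadjusted p under 0.05, limma called lower 1 after quantile normalization (SIW14), 2 after scaling (SIW14 and PHO23), 1 without the 0 µM array (SIW14), 1 with tag set 2 alone (RIM15) and 6 with dose in µM, and it called higher 5 with dose in µM. At 800 µM the members below and above the range numbered 1 and 1, but 1 and 2 past 1 in log2, 2 and 2 with the outer 2.5% left out, 0 and 2 past 1 after subtracting the 0 µM array, and 0 and 0 with tag set 1 alone, in which PHO80 and PHO81 have no haploid value. The further genes, 4 below and 3 above, numbered 6 and 6 past 1, 8 and 7 with the outer 2.5% left out, and 2 and 1 with tag set 1 alone. Members below -1 in heterozygotes numbered 1 by the difference and 2 on the 450 µM array alone. Of the members' single values, 29 of their haploid slopes under the alternatives, 6 heterozygous differences and 1 value of the pool lacking PFD1 moved by more than their error, against 76, 30 and 8 that did not. The cause of these changes was not tested. Part of the 76 and of the 30 was fixed in advance and says nothing of stability. A slope cannot move when the 200 µM array, the middle of the equal steps, is left out. Nor can it move with another prior or when strains with 1 tag are dropped. For a strain with 1 tag, its tag set alone is nearly the same data, for slopes and heterozygous differences alike. No paired analysis was possible because each pool and dose has 1 array and the labels number no replicates.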

Other observations

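In haploids lacking PFD1 at 5 µM arsenite without uracil, several of the further phosphate genes lay farther from the median than any of the 10 sensing and transport strains. PLC1, the phospholipase C that feeds inositol phosphate synthesis, read -2.45, and PHO23 read -1.18. On the other side GCN4, the activator of amino acid synthesis genes, read 1.95, CLN3 read 1.17 and SIW14 0.94. SIW14 was thus above the median on this array and at -3.20 in haploids with PFD1 at 800 µM; the doses and media differ. RRP6, beside PHO80, read 3.24 on this array and TUB3, beside PHO84, -1.44. These values come from 1 array and were chosen after they were seen. PLC1, GCN4, CLN3 and SIW14 rested on 1 tag each, with a tag error of 0.48. The lists hold 51 genes against 10 members, so more of them can lie far out. The member farthest from the median, PHO80 at -0.85, was at percentile 9.78 of all strains.

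Some strains stood away from the median without arsenite. CLG1, another cyclin of Pho85, read 1.64 on the haploid and 1.22 on the heterozygous 0 µM array. PCL9 read 0.86 and 0.78 on the same arrays, inside the range on both and from 1 tag. Its other tag had no value there. In haploids at 100, 200 and 400 µM that other tag read -0.06, 0.23 and 0.03, against 0.58, 0.42 and 0.88 for the first. Whether the reading belongs to the strain or to the tag was not tested. In haploids lacking PFD1 the strains CLG1 and PCL9 read -0.09 and -0.07.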
